A study of Mus musculus with 18 samples.

Results

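Cytochrome P450 genes of families 1, 2 and 3 were measured in the livers of 18 male mice. The genes were taken by symbol, as every symbol made of Cyp1, Cyp2 or Cyp3, a subfamily letter and a number that lay above 0 in at least 1 mouse. There were 57 such genes of 20071 genes above 0, in 16 subfamilies, while 44 other Cyp genes were also above 0. Subfamily Cyp2c held 15 of them, Cyp2d 9, Cyp2j and Cyp3a 7 each, Cyp2a and Cyp2b 4 each, Cyp1a 2, and each of the other 9 subfamilies 1. The symbols Cyp2ab1, Cyp3a41a, Cyp3a41b, Cyp2c53-ps and Cyp2d37-ps were outside this rule.

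Liver RNA came from 4 FF mice and 4 LKO mice on a control diet (CD) and from 5 FF mice and 5 LKO mice on a high-fat diet (HFD). FF mice carried floxed alleles of Ppp6r3, the gene of the protein phosphatase subunit SAPS3, on a C57BL/6 background. LKO mice carried the same floxed alleles together with a Cre recombinase that the albumin promoter drives in hepatocytes, so that other liver cells kept the gene. The diets supplied 10% (CD) or 32.5% (HFD) of energy as fat and were fed for 16 weeks from 8 weeks of age. Mice are numbered here within each group as in their titles. The values were RPKM, the reads of a gene scaled to its length and to the size of the library. Ppp6r3 itself lay at 9.34 ± 1.14 RPKM in FF mice and 3.99 ± 0.0822 in LKO mice under CD (mean ± SD, n = 4 each), and at 8.23 ± 0.467 and 4.60 ± 0.271 under HFD (n = 5 each), with no overlap between the genotypes.

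Cytochrome P450 enzymes are heme proteins of the endoplasmic reticulum that insert an oxygen atom into their substrates with electrons from P450 reductase. Families 1 to 3 oxidize drugs and other foreign compounds, and also steroids, bile acids, retinoids and arachidonic acid, and hepatocytes are their main site. Several of the genes are induced through the receptors AhR (Cyp1a), CAR (Cyp2b) and PXR (Cyp3a), and some differ between male and female mouse liver under the control of growth hormone. Many sit in tandem arrays of near-identical copies.

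The read depth recovered from the steps between low values was 23.4 M to 37.0 M reads per library, and mice of a group correlated at 0.974 to 0.993 over the tested genes (log2 scale). The P450 genes made up 1.66% to 2.49% of the summed RPKM of a mouse. Genes were tested where their mean over the 18 mice reached 0.5 RPKM, which held for 37 of the 57 P450 genes. One model over all mice (limma on log2(RPKM + 1), Benjamini-Hochberg adjustment over 11090 genes, two-sided) gave each log2 fold change with its standard error (SE), so that fold changes of low genes are understated. A gene was called at a fold change above 1.5 and an adjusted p under 0.05. The labels give 1 library per mouse title and say nothing on litters or preparation batches, so p-values measure the spread between these libraries. The samples were whole liver, in which fewer cells of a type and less RNA per cell cannot be told apart.

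In FF mice, HFD changed 13 of the 37 tested P450 genes (35.1%), against 6.6% of all genes tested. Cyp2a4, Cyp2a22, Cyp2b9, Cyp2c38, Cyp2c39, Cyp3a11 and Cyp3a59 rose (5.11% of all genes were called higher), and Cyp1a2, Cyp2c23, Cyp2c54, Cyp2c67, Cyp2c70 and Cyp2d9 fell (1.49% were called lower). Cyp2b9 reached the filter on low values only through the FF HFD mice, and without such genes 12 of 35 were called here, 9 for genotype under HFD and 10 for the interaction. For all 13 the values of the CD mice and the HFD mice did not overlap. In total 18 of the 37 genes did not overlap, compared with 18.3% of all genes. The median log2 fold change of the tested P450 genes was 0.06, beside 0.07 over all genes.

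In LKO mice the same diets changed 1 P450 gene, Cyp2j9, which fell (1.27% of all genes were called in either direction and 0.307% lower). It was also the 1 P450 gene whose LKO diet groups did not overlap, compared with 9.04% of all genes. None of the 13 genes called in FF mice was called in LKO mice, where their log2 fold changes ran from -0.31 for Cyp2c70 to 0.46 for Cyp3a11. The test of the difference between the genotypes in their response to diet (interaction) called 11 genes, compared with 2.44% of all genes. Cyp2a4, Cyp2a22, Cyp2b9, Cyp2c38, Cyp2c39 and Cyp3a59 had a lower fold change in LKO than in FF mice (1.5% of all genes), and Cyp1a2, Cyp2c23, Cyp2c67, Cyp2c70 and Cyp2d9 a higher fold change (0.947%). The 11 calls became 7 when any of 4 mice was left out, namely FF CD mouse 3, FF HFD mouse 2, or mouse 2 or 4 of the LKO CD group.

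**Figure D1:**
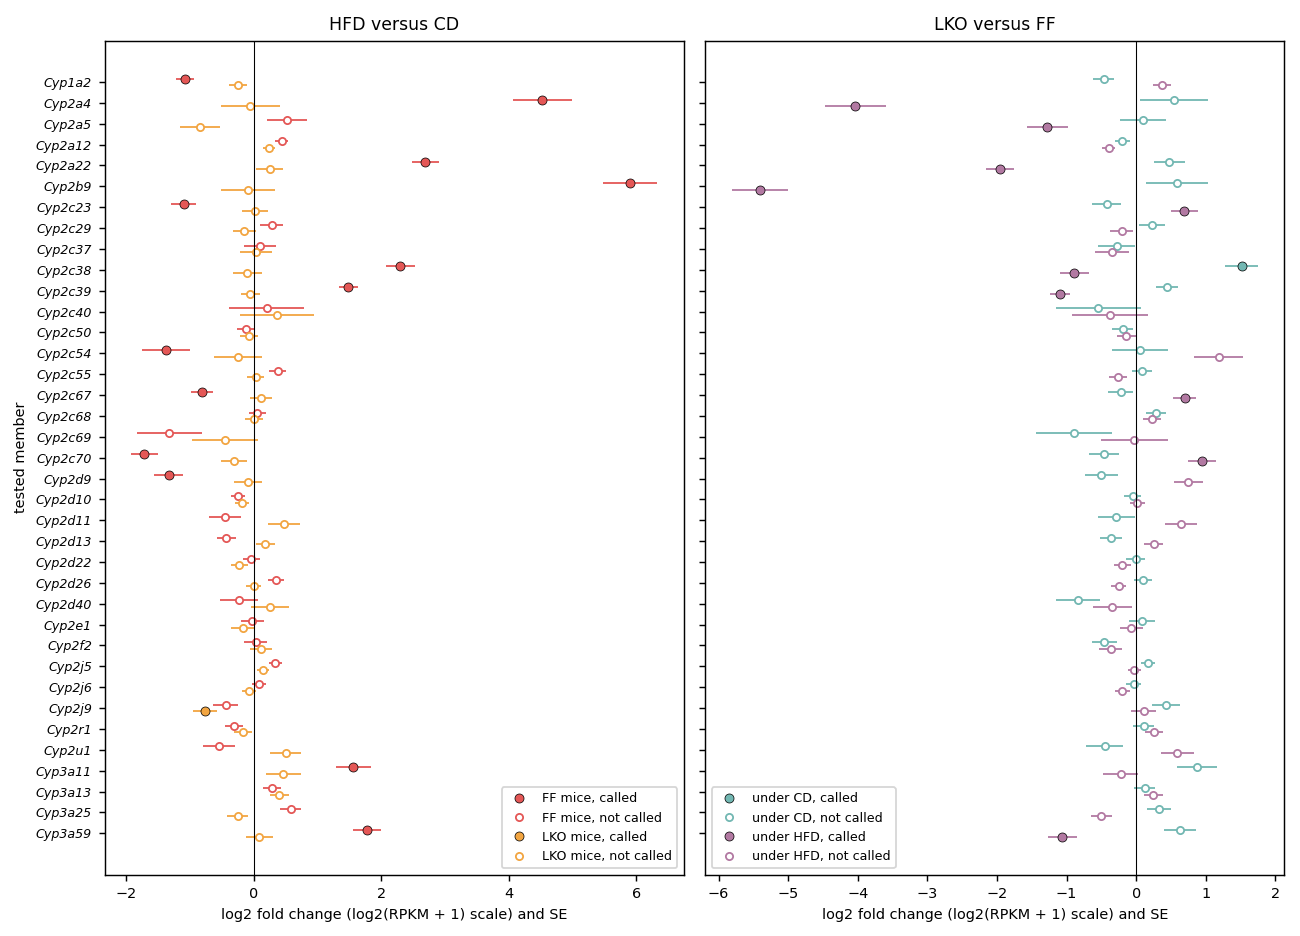
Log2 fold changes (x axis, on the log2(RPKM + 1) scale, bars are SE) of the 37 tested P450 genes (y axis), for HFD versus CD in FF and LKO mice (left) and for LKO versus FF mice under CD and HFD (right), with filled points for called genes. The 13 filled points of the FF mice lie on both sides of 0, from -1.72 to 5.90, and 1 point of the LKO mice is filled.

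Under HFD, LKO mice differed from FF mice in 10 P450 genes (2.07% of all genes). Cyp2a4, Cyp2a5, Cyp2a22, Cyp2b9, Cyp2c38, Cyp2c39 and Cyp3a59 were lower in LKO mice (1.17% of all genes were called lower), and Cyp2c23, Cyp2c67 and Cyp2c70 were higher (0.902%). The groups of 12 genes did not overlap, compared with 4.67% of all genes, and 7 of those were called. Without LKO HFD mouse 3 the calls fell from 10 to 6. Of the 13 genes called for diet in FF mice, 9 were also called here, each with the opposite sign. These comparisons share the FF HFD mice, so the opposite signs are given as a description. Under CD, Cyp2c38 was the only P450 gene called between the genotypes (0.225% of all genes) and was higher in LKO mice (0.0902% of all genes), while 7 genes did not overlap (5.07% of all genes).

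Cyp2e1, which oxidizes ethanol and other small molecules, had the highest RPKM of the family in every group. Its level was 3400.4 ± 715 in FF mice and 3545 ± 378 in LKO mice under CD, and 3289.6 ± 141 and 3238 ± 959 under HFD. It was not called in any comparison, and its log2 fold change in FF mice was -0.02, with a 95% interval of -0.40 to 0.36. The sum over all 57 genes was 7862 ± 871 RPKM in FF CD, 7824 ± 613 in LKO CD, 8032 ± 322 in FF HFD and 7584 ± 1234 in LKO HFD mice. The subfamilies beneath this sum differed in which way their means lay. The Cyp2b sum went from 0.0204 ± 0.00265 in FF CD to 71.4 ± 42.6 in FF HFD mice, the Cyp3a sum from 534 ± 85.5 to 1236 ± 229, and the Cyp2a sum from 452 ± 113 to 658 ± 121. In the same mice the Cyp1a sum went from 196 ± 29.5 to 91.8 ± 2.89, the Cyp2c sum from 1307 ± 204 to 1006 ± 107, and the Cyp2d sum from 1375 ± 117 to 1048 ± 177. In LKO CD mice the sums were 0.959 ± 1.73 for Cyp2b, 849 ± 191 for Cyp3a, 427 ± 60.8 for Cyp2a, 142 ± 22.2 for Cyp1a, 1198 ± 144 for Cyp2c and 1167 ± 75.6 for Cyp2d. In LKO HFD mice they were 0.513 ± 0.568 for Cyp2b, 1066 ± 321 for Cyp3a, 358 ± 70.0 for Cyp2a, 121 ± 26.1 for Cyp1a, 1135 ± 102 for Cyp2c and 1123 ± 129.9 for Cyp2d. Sums over subfamilies were not tested.

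**Figure D2:**
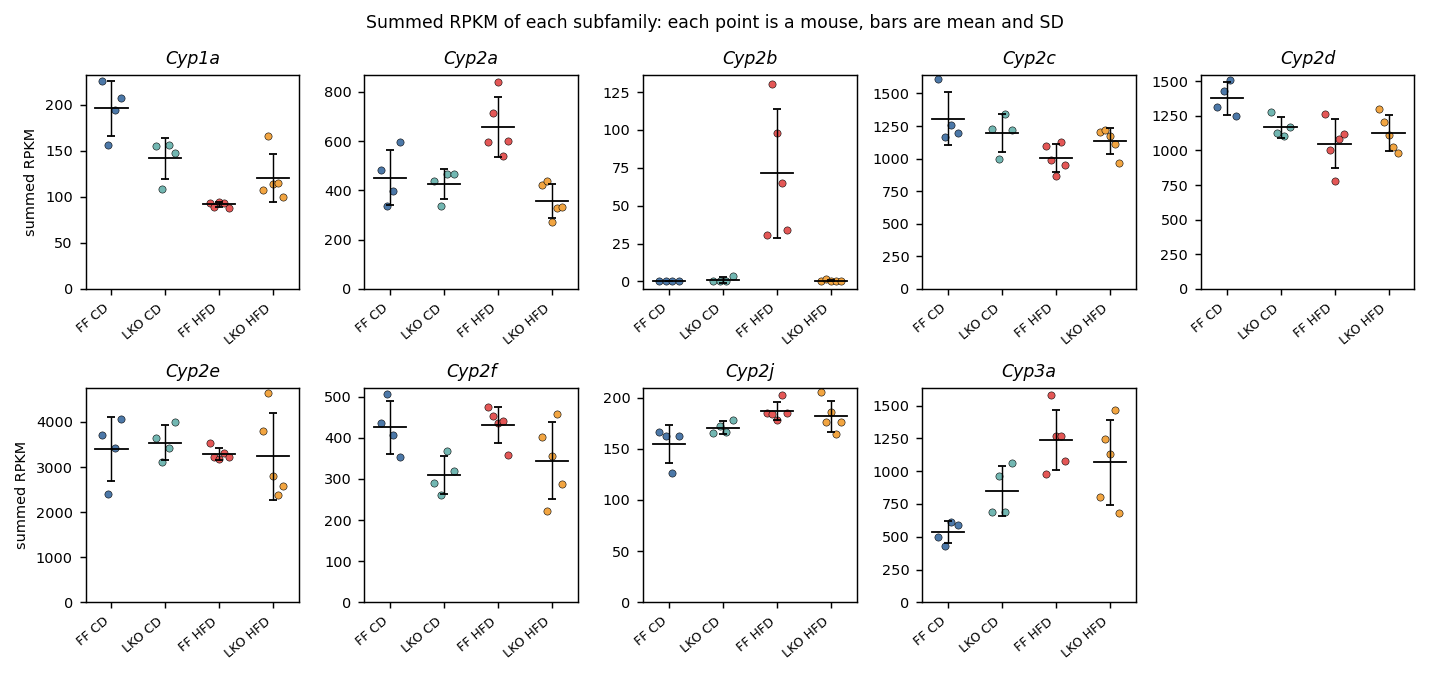
Summed RPKM (y axis, linear scale) of the members of 9 subfamilies in each mouse (points) of the 4 groups (x axis), with the mean and SD. The Cyp2b sum lies at 30.7 to 130.01 in FF HFD mice and at or below 3.54 in all others, and the Cyp3a sum of every FF CD mouse lies below that of every other mouse.

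The Cyp2b subfamily includes classical phenobarbital-inducible P450s regulated through CAR, such as Cyp2b10, while Cyp2b9 and Cyp2b13 are known as forms of female mouse liver. Cyp2b9 (GRCm38 chr7:26173411-26210661, plus strand) was at 0, 0.0213, 0.0228 and 0.0210 RPKM in the FF CD mice and at 30.4, 125, 95.6, 63.1 and 32.7 in the FF HFD mice. It was at 0, 0.0189, 0.196 and 3.42 in the LKO CD mice and at 0.450, 1.48, 0.173, 0.273 and 0.109 in the LKO HFD mice. Each of the 5 FF HFD mice lay above all 13 other mice, among which LKO CD mouse 4 was the highest. The FF CD values stand for an estimated 3 reads over the 4 mice, and the ratio of the FF HFD to the FF CD mean was 4262 with a 95% counting interval of 1458 to 20668, which covers counting error only. The log2 fold change was 5.90 ± 0.43 (SE) for HFD in FF mice, -0.09 ± 0.43 for HFD in LKO mice, -5.41 ± 0.40 for LKO against FF mice under HFD and -5.99 ± 0.60 for the interaction. The mean of the 13 mice of the other groups was 0.476 RPKM, so that Cyp2b9 was tested because it was high in the FF HFD mice, and its p-values are therefore given from the model of all 20071 genes without a filter. There the adjusted p (limma) was 9.2e-06 for HFD in FF mice, 1.0 in LKO mice, 1.6e-05 for genotype under HFD and 0.00053 for the interaction. The value for HFD in LKO mice turned to 0.42 without LKO CD mouse 4.

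Cyp2b13 and Cyp2b10 stayed below the filter and were not tested with it. Without the filter both were called for HFD in FF mice, where 15 of the 57 genes were called (3.5% of all 20071 genes). Cyp2b13 (GRCm38 chr7:26061497-26096197, plus strand) had a value above 0 in 1 of 4 FF CD mice, an estimated 1 read, and lay at 0.0958, 4.41, 1.96, 0.718 and 0.304 RPKM in the FF HFD mice. The ratio of its means was 361 with a counting interval of 64.7 to 14247. Cyp2b10 (GRCm38 chr7:25897620-25926624, plus strand), the form most often used as a marker of CAR activity, was listed at 0 in the 4 FF CD mice and at 0.212, 0.919, 0.266, 0.951 and 0.754 in the FF HFD mice. The mean of the FF HFD mice, 0.621, was 10.3-fold the level of 3 reads per library, and mice 1 and 3 lay nearest to that level. In the LKO mice Cyp2b10 did not exceed 0.0782 and Cyp2b13 did not exceed 0.0401 RPKM under either diet, so that both were highest in the FF HFD mice. Among these 5 mice, mouse 1 had the lowest and mouse 2 the highest value of both Cyp2b9 and Cyp2b13, whereas for Cyp2b10 mouse 4 was the highest. The 4th member, Cyp2b23, was above 0 in 1 mouse, at 1.54e-21 RPKM, a value that corresponds to no read.

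Cyp2b9 and Cyp2b13 are near-identical genes, with 92.7% identity over the coding sequence, and their reads can be confused. The windows before their start sites are shown because both genes were high in the same mice while their levels differed. In the 150 bases before the annotated start (RefSeq, GRCm38.p6, chr7:26173259-26173408 on the plus strand for Cyp2b9 and chr7:26061345-26061494 on the plus strand for Cyp2b13, 5′ to 3′), 1 position differed, given in capitals.
Cyp2b9: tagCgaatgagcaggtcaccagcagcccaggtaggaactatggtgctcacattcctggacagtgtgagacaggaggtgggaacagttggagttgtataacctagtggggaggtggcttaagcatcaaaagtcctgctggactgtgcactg
Cyp2b13: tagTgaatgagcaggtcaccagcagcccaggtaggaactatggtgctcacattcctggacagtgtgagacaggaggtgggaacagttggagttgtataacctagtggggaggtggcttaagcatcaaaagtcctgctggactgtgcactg
The same stretch of Cyp2b10 shared 73.5% of the aligned positions with Cyp2b9. Cyp2b13 was at 0.315% to 3.54% of the Cyp2b9 RPKM in the FF HFD mice.

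In subfamily Cyp2a, the low members Cyp2a4 and Cyp2a22 had larger log2 fold changes for HFD in FF mice than Cyp2a5 and Cyp2a12, the high ones. Cyp2a4, a steroid 15-alpha-hydroxylase that is higher in female liver (GRCm38 chr7:26307169-26315088, plus strand), was at 0.334, 0.136, 0.0758 and 0.481 RPKM in the FF CD and 0.321, 0.786, 0.711 and 1.68 in the LKO CD mice. Under HFD it was at 7.59, 59.7, 69.0, 20.6 and 23.6 in the FF mice and 0.314, 2.92, 0.639, 0.693 and 0.149 in the LKO mice. All 5 FF HFD mice were above the other 13, and their lowest was again mouse 1. The log2 fold change for HFD was 4.52 ± 0.47 in FF mice (adjusted p = 6.1e-06) and -0.05 ± 0.47 in LKO mice (adjusted p = 0.96). Between LKO and FF mice under HFD it was -4.04 ± 0.44 (adjusted p = 3.9e-05), and the interaction was -4.58 ± 0.66 (adjusted p = 0.00071).

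Its close copy Cyp2a5, the coumarin 7-hydroxylase (GRCm38 chr7:26835305-26843548, plus strand), was far higher in every group, and was called for genotype under HFD but not for diet in FF mice or for the interaction. It lay at 288, 120.4, 202 and 376 RPKM in the FF CD, 259, 175, 253 and 297 in the LKO CD, 302, 357, 454, 239 and 308 in the FF HFD and 170.2, 241, 78.5, 111 and 118 in the LKO HFD mice. The FF mice of both diets overlapped, with a log2 fold change of 0.52 ± 0.31 (adjusted p = 0.26), whereas under HFD the LKO mice were lower than FF mice at -1.28 ± 0.30 (adjusted p = 0.021). This call was lost without FF HFD mouse 2, FF HFD mouse 3, LKO HFD mouse 3 or LKO HFD mouse 4 (adjusted p of 0.0578, 0.0551, 0.0694 and 0.0532), and with no filter on low values (0.0526). The interaction of Cyp2a5 was -1.37 ± 0.44 (adjusted p = 0.11).

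Cyp2a4 and Cyp2a5 share 98.4% of their coding sequence, and 41.1% of the 31-base words of the Cyp2a4 transcript occur in no other gene, so part of the reads cannot be assigned with certainty. Cyp2a4 was listed at 0.0376% to 0.128% of Cyp2a5 in the FF CD mice and at 2.51% to 16.7% in the FF HFD mice. The shares were 0.124% to 0.566% in the LKO CD and 0.126% to 1.21% in the LKO HFD mice. How far the assignment of reads affects these shares was not tested. Their start windows are printed because this pair of genes differed in level while the sequence before the start hardly differed. Of 149 aligned positions in the last 150 bases before each start (RefSeq, GRCm38.p6, chr7:26307042-26307191 on the plus strand and chr7:26835189-26835338 on the plus strand), 3 differed, given in capitals, and the windows are offset by 1 base.
Cyp2a4: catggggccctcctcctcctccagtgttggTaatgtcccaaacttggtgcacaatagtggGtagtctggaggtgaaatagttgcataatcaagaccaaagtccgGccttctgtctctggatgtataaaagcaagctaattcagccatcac
Cyp2a5: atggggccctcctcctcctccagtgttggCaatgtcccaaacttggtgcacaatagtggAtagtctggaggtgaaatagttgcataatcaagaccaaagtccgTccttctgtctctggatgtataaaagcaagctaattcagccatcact
Both contain TATAAA near the start.

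Cyp2a22 (GRCm38 chr7:26931631-26939384, minus strand) and Cyp2a12, a bile acid 7-alpha-hydroxylase, form the other pair of this subfamily, with 97.0% coding identity. Of the 31-base words of the Cyp2a22 transcript 60.6% occur in no other gene, so part of its reads cannot be assigned with certainty. Cyp2a22 was listed at 0.352% to 0.507% of Cyp2a12 in the FF CD and 2.89% to 6.61% in the FF HFD mice. The shares were 0.765% to 1.11% in the LKO CD and 0.711% to 1.44% in the LKO HFD mice. Cyp2a22 was at 0.976, 0.753, 0.892 and 1.09 RPKM in the FF CD, 1.52, 1.71, 1.61 and 1.84 in the LKO CD, 8.01, 18.3, 16.6, 9.46 and 8.09 in the FF HFD and 3.52, 1.86, 2.72, 1.70 and 1.51 in the LKO HFD mice. Every FF HFD mouse lay above the other 13 mice, and every LKO CD mouse lay above every FF CD mouse. Its log2 fold change was 2.69 ± 0.21 for HFD in FF mice (adjusted p = 4.1e-07), -1.96 ± 0.20 for genotype under HFD (adjusted p = 1.5e-05) and 0.47 ± 0.22 for genotype under CD (adjusted p = 0.64). The interaction was -2.43 ± 0.30 (adjusted p = 0.00016). Cyp2a12 had 205 ± 13.4 RPKM in FF CD, 179 ± 22.5 in LKO CD, 278 ± 15.7 in FF HFD and 211 ± 22.9 in LKO HFD mice. Its diet groups in FF mice did not overlap, and its adjusted p passed for diet in FF mice (0.0043) and for genotype under HFD (0.022), but the log2 fold changes of 0.44 and -0.40 were below the threshold on fold change.

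**Figure D3:**
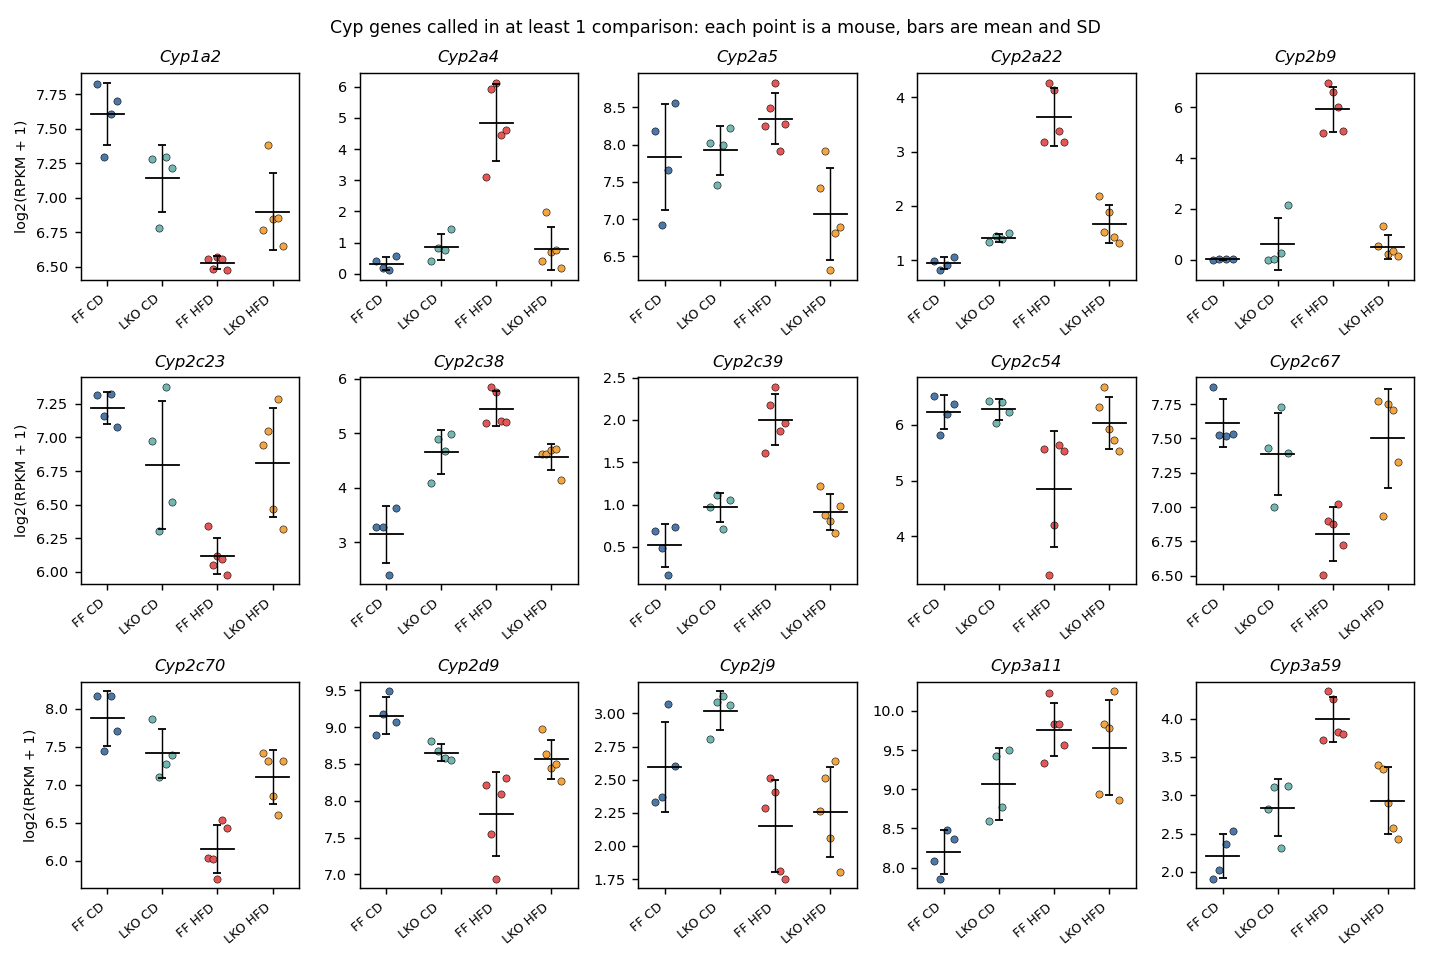
Log2(RPKM + 1) (y axis, a separate scale for each gene, not starting at 0) of the 15 P450 genes called in at least 1 comparison, in each mouse (points) of the 4 groups (x axis), with the mean and SD. For Cyp2a4, Cyp2a22, Cyp2b9, Cyp2c38, Cyp2c39 and Cyp3a59 the 5 FF HFD mice lie above all others, and for Cyp1a2 and Cyp2c70 they lie below all others.

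Subfamily Cyp2c, which includes epoxygenases of arachidonic acid, moved in both directions. Cyp2c38 (GRCm38 chr19:39389556-39463075, minus strand) was at 8.74, 8.68, 4.30 and 11.3 RPKM in the FF CD, 16.0, 28.8, 24.6 and 30.5 in the LKO CD, 35.6, 56.6, 52.6, 36.5 and 36.1 in the FF HFD and 23.7, 23.5, 24.9, 25.2 and 16.6 in the LKO HFD mice. The order of the groups was FF CD, then both LKO groups, which overlapped, then FF HFD, and no FF mouse fell within the range of the LKO mice. HFD raised it in FF mice (log2 fold change 2.30 ± 0.23, adjusted p = 4.4e-06), and LKO mice were higher than FF mice under CD (1.51 ± 0.24, adjusted p = 0.0073) and lower under HFD (-0.89 ± 0.21, adjusted p = 0.025). In LKO mice the diets differed by -0.10 ± 0.23 (adjusted p = 0.83), and the interaction was -2.40 ± 0.32 (adjusted p = 0.00038). The call under HFD was lost without FF HFD mouse 2, FF HFD mouse 3, LKO HFD mouse 3 or LKO HFD mouse 5 (adjusted p of 0.0783, 0.0624, 0.0503 and 0.0581), and with no filter (0.0581). The call under CD had an adjusted p of 0.0589 when only the CD mice entered the model.

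Cyp2c39, a retinoic acid hydroxylase next to Cyp2c38 (GRCm38 chr19:39510862-39568529, plus strand) with 94.2% coding identity, was lower. It was at 0.609, 0.397, 0.127 and 0.662 RPKM in the FF CD, 0.969, 1.17, 0.642 and 1.08 in the LKO CD, 2.05, 3.54, 4.25, 2.67 and 2.89 in the FF HFD and 1.33, 0.831, 0.750, 0.586 and 0.982 in the LKO HFD mice. Each FF HFD mouse was above all others. The log2 fold change was 1.49 ± 0.15 for HFD in FF mice (adjusted p = 4.9e-06), -1.09 ± 0.14 for genotype under HFD (adjusted p = 0.00020) and -1.54 ± 0.21 for the interaction (adjusted p = 0.00048). Under CD the genotypes differed by 0.45 ± 0.16 (adjusted p = 0.41), and 1 FF CD mouse lay above the lowest LKO CD mouse.

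Cyp2c70, which makes the muricholic acids of the mouse (GRCm38 chr19:40153353-40187333, minus strand), went the other way. It was at 287, 173, 286 and 208 RPKM in the FF CD, 232, 136, 154 and 167 in the LKO CD, 64.3, 63.8, 53.2, 91.6 and 85.2 in the FF HFD and 170.3, 157, 114, 96.2 and 157 in the LKO HFD mice. The 5 FF HFD mice were below all 13 other mice. It fell with HFD in FF mice (-1.72 ± 0.21, adjusted p = 3.2e-05), differed by -0.31 ± 0.21 in LKO mice (adjusted p = 0.40) and was higher in LKO than in FF mice under HFD (0.94 ± 0.20, adjusted p = 0.011), with an interaction of 1.41 ± 0.30 (adjusted p = 0.013). None of the 31-base words of its transcript occurs in another gene.

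Cyp2c23, an arachidonic acid epoxygenase (GRCm38 chr19:44005022-44029208, minus strand), was at 158, 142, 159 and 134 RPKM in the FF CD, 124, 78.2, 165 and 90.6 in the LKO CD, 80.2, 65.2, 68.6, 67.6 and 62.1 in the FF HFD and 122, 131, 87.5, 155 and 78.8 in the LKO HFD mice. The FF diet groups did not overlap, while single mice of both LKO groups reached down into the FF HFD range. The fall in FF mice was -1.10 ± 0.20 (adjusted p = 0.00098). The difference between genotypes under HFD was 0.69 ± 0.19 (adjusted p = 0.045) and the interaction 1.12 ± 0.28 (adjusted p = 0.037). Both of these calls were lost when single mice were left out and under other settings. The call under HFD was lost under 6 of the 9 other settings, with an adjusted p of 0.0602 with median centring, 0.0506 with quantile normalization, 0.0588 with scaling to the same sum, 0.0836 with no filter, 0.0598 with only the HFD mice in the model and 0.0504 with a replicate block. The interaction was lost with no filter (0.0874). Of the mice left out in turn, the call under HFD was kept only when FF HFD mouse 1, LKO CD mouse 2, LKO CD mouse 3 or LKO HFD mouse 5 was left out and was lost without any of the other 14 mice, with an adjusted p of up to 0.115 without LKO HFD mouse 4. The interaction was lost without any of 11 mice (FF CD mice 1, 2 and 3, FF HFD mice 2 to 5, LKO CD mice 2 and 4, LKO HFD mice 2 and 4), with an adjusted p of up to 0.0989 without LKO CD mouse 2.

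Cyp2c67 (GRCm38 chr19:39608842-39649051, minus strand) was at 234, 183, 182 and 184 RPKM in the FF CD, 171, 127, 211 and 167 in the LKO CD, 89.9, 118, 116, 129 and 105 in the FF HFD and 218, 122, 215, 208 and 159.8 in the LKO HFD mice. The FF diet groups did not overlap, and LKO HFD mouse 2 lay within the FF HFD range. The log2 fold change was -0.81 ± 0.17 for HFD in FF mice (adjusted p = 0.0031), 0.70 ± 0.16 for genotype under HFD (adjusted p = 0.022) and 0.92 ± 0.24 for the interaction (adjusted p = 0.048). The call under HFD was lost without FF HFD mouse 5, LKO HFD mouse 3 or LKO HFD mouse 4 (adjusted p of 0.0556, 0.0706 and 0.0592), and with only the HFD mice in the model (0.0549). The interaction was lost under 4 of the 8 other settings, with an adjusted p of 0.0504 with median centring, 0.0833 with quantile normalization, 0.0668 with the same sum and 0.0998 with no filter. Of the mice left out in turn, it was kept only when mouse 3 of the LKO CD or mouse 2 of the LKO HFD group was left out and was lost without any of the other 16, with an adjusted p of up to 0.123 without LKO CD mouse 2. Only 32.4% of its 31-base words occur in no other gene, and its closest relative is Cyp2c69 with 97.7% coding identity, so its level is uncertain by what was assigned to its copies.

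Cyp2c54 (GRCm38 chr19:40037940-40073827, minus strand) was at 90.0, 55.0, 72.3 and 81.9 RPKM in the FF CD, 85.0, 64.7, 83.7 and 73.9 in the LKO CD, 46.4, 8.95, 17.5, 48.6 and 45.1 in the FF HFD and 78.4, 101, 59.9, 51.9 and 44.98 in the LKO HFD mice. In the Cyp2c54 transcript 57.7% of the 31-base words occur in no other gene, so part of its reads cannot be assigned with certainty. FF HFD mice 2 and 3 were far below the rest. It fell with HFD in FF mice, with a log2 fold change of -1.37 ± 0.38 (adjusted p = 0.015, and 0.0520 with only the FF mice in the model), while the difference between genotypes under HFD, 1.18 ± 0.36, did not pass (adjusted p = 0.068) unless FF HFD mouse 1 was left out (adjusted p = 0.0400).

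The other tested Cyp2c genes were not called in any comparison. Cyp2c29 had means of 263, 295, 310.3 and 266 RPKM in the FF CD, LKO CD, FF HFD and LKO HFD mice. In the same order the means were 115, 94.6, 121 and 98.3 for Cyp2c37, 144, 125, 131 and 119 for Cyp2c50, and 93.4, 112, 96.2 and 113 for Cyp2c68. Their log2 fold changes for HFD in FF mice had 95% intervals of -0.09 to 0.66, -0.44 to 0.63, -0.42 to 0.17 and -0.23 to 0.34, so that a change of 1.5-fold was within the interval for Cyp2c29 and Cyp2c37 and outside it for Cyp2c50 and Cyp2c68. Cyp2c69 ranged from 4.68 to 35.9 RPKM among the FF CD mice alone, Cyp2c55 from 0.365 to 2.14 over all mice, and Cyp2c40 reached 25.3 RPKM in FF HFD mouse 1 beside 0.801 to 3.27 in the other FF HFD mice. Cyp2c65 and Cyp2c66 were below the filter, with at most 0.741 and 0.0363 RPKM.

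The Cyp2c genes lie side by side on chromosome 19, apart from Cyp2c23, and neighbouring members moved in opposite directions. In order of position, Cyp2c38 and Cyp2c39 rose with HFD in FF mice, the next gene Cyp2c67 fell, Cyp2c68, Cyp2c40, Cyp2c69 and Cyp2c37 were not called, Cyp2c54 fell, Cyp2c50 was not called and Cyp2c70 fell. On chromosome 7, Cyp2b9 and Cyp2a4 were adjacent among the genes of this rule, both rose, and Cyp2a22 rose further along, with Cyp2a5 between them not called for diet. Both directions thus occurred within the cluster on chromosome 19.

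**Figure D4:**
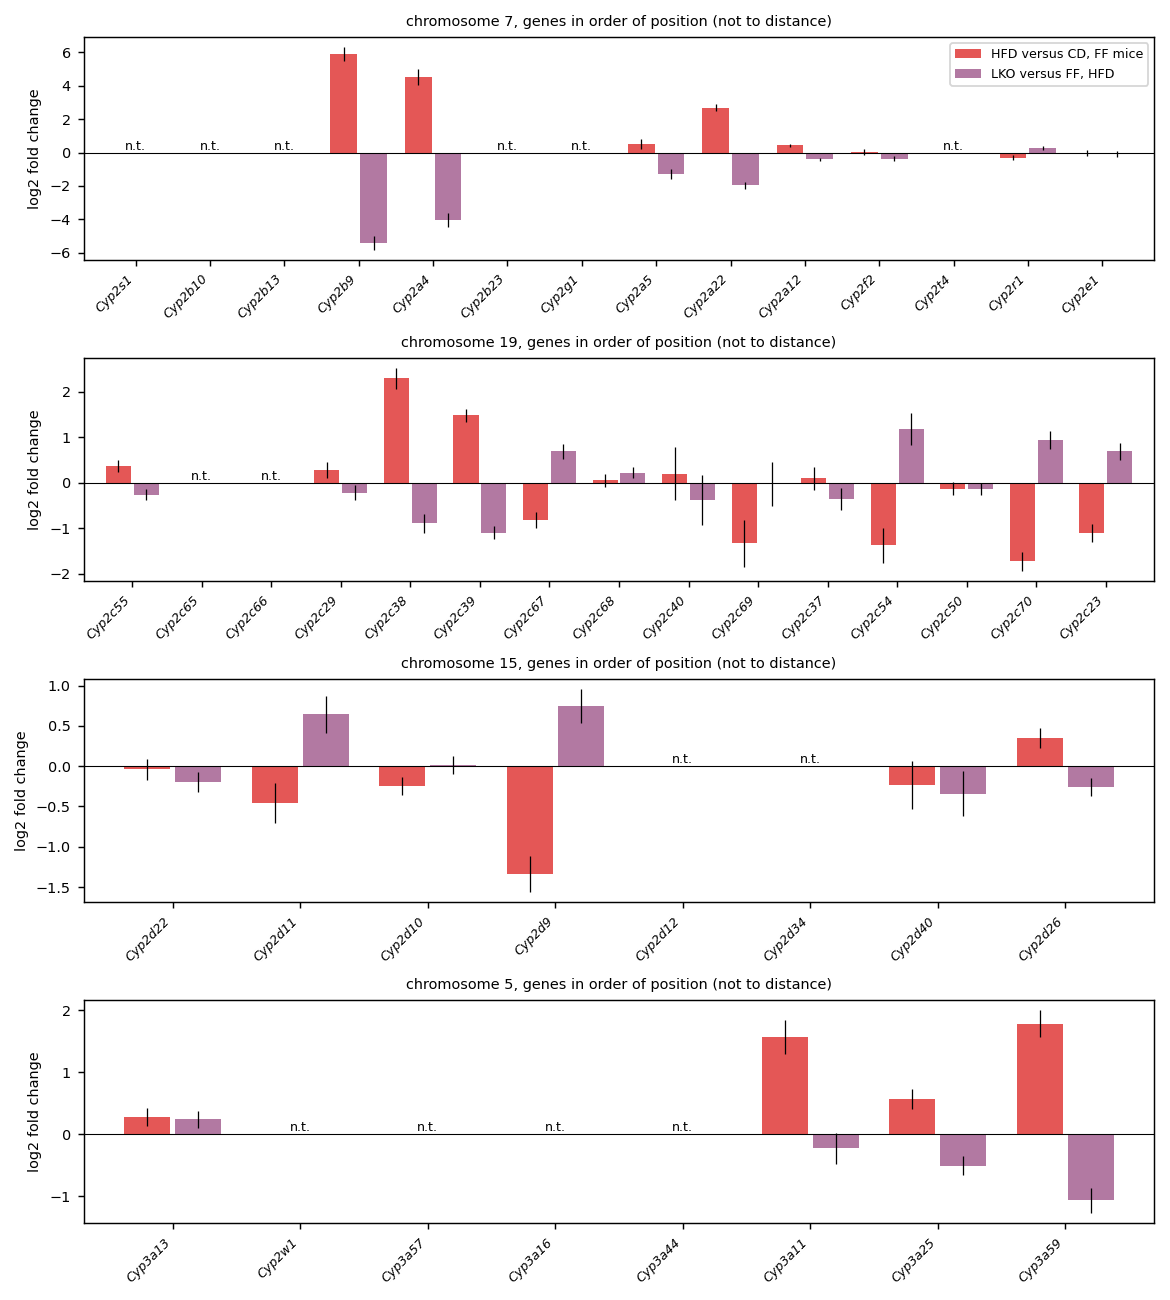
Log2 fold change (y axis, bars, with SE) of P450 genes in their order along chromosomes 7, 19, 15 and 5 (x axis, evenly spaced and not to distance), for HFD versus CD in FF mice and for LKO versus FF mice under HFD, with n.t. for genes not tested. On chromosome 19 the bars of Cyp2c38 (2.30) and Cyp2c39 (1.49) point up beside the bar of Cyp2c67 (-0.81), which points down.

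All start windows were searched for 4 motifs, among them CAAAGTCCA, a sequence of the kind bound by the hepatocyte factor HNF4A. RefSeq gave windows of 250 bases before to 50 bases after the start for 49 of the 57 genes. The letters occurred on either strand in 0.475% of all 32851 windows and in those of 8 P450 genes (Cyp2c40, Cyp2c65, Cyp2c67, Cyp2c68, Cyp2c69, Cyp2c70, Cyp3a11 and Cyp3a16), of which Cyp2c40, Cyp2c67, Cyp2c68 and Cyp2c69 are close copies. Examples of the last 150 bases before the start (GRCm38.p6) are shown with the match in capitals, for genes that fell with HFD in FF mice (Cyp2c67 at chr19:39649043-39649192 on the minus strand and Cyp2c70 at chr19:40187287-40187436 on the minus strand) and for one that rose (Cyp3a11 at chr5:145879855-145880004 on the minus strand). The window of Cyp2c38, which rose (chr19:39463076-39463225 on the minus strand), is given without a match.
Cyp2c67: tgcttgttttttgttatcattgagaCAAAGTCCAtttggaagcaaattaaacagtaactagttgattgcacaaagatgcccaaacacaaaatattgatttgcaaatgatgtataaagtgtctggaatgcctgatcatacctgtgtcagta
Cyp2c70: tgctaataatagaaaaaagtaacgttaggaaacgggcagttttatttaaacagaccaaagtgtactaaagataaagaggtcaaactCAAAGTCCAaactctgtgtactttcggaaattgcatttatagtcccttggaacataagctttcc
Cyp3a11: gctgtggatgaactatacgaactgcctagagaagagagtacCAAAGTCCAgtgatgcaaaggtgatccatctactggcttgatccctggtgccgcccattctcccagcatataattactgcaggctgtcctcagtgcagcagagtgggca
Cyp2c38: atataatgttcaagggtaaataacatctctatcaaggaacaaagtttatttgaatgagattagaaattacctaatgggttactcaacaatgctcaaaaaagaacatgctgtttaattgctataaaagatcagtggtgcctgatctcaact
Among the 8 genes, 2 fell, 1 rose, 3 were tested and not called for HFD in FF mice, and 2 were not tested, so genes with a match were found in either direction. The letters TTCNNNGAA, the motif of STAT5, were in 8.30% of all windows and in those of Cyp2j11 and Cyp2j12. GCGTG, the core bound by AhR, was in 32.4% of all windows and in those of 9 P450 genes, among them Cyp1a1 and Cyp1b1. TATAAA was in 13.6% of all windows and in those of 26 P450 genes. All 4 motifs were counted on both strands.

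In subfamily Cyp2d, Cyp2d9, the testosterone 16-alpha-hydroxylase of male mouse liver (GRCm38 chr15:82433437-82456845, plus strand), was the only gene called. It was at 474, 576, 718 and 536 RPKM in the FF CD, 447, 408, 380.0 and 375 in the LKO CD, 295, 187, 122, 271 and 316 in the FF HFD and 501, 397, 348, 362 and 307 in the LKO HFD mice. Of the 31-base words of the Cyp2d9 transcript 53.6% occur in no other gene, so part of its reads cannot be assigned with certainty. The FF CD mice were above all LKO CD and all FF HFD mice, with FF HFD mice 2 and 3 the lowest of all. HFD lowered it in FF mice (-1.34 ± 0.22, adjusted p = 0.00049), and the difference in LKO mice was -0.09 ± 0.22 (adjusted p = 0.85). The genotype difference was -0.50 ± 0.23 under CD (adjusted p = 0.63) and 0.75 ± 0.21 under HFD (adjusted p = 0.051), which passed without FF HFD mouse 1 or FF HFD mouse 5 (adjusted p = 0.0323 and 0.0364). The interaction of 1.25 ± 0.31 (adjusted p = 0.036) was lost without any of 10 mice (FF CD mice 2, 3 and 4, FF HFD mouse 2, LKO CD mice 2, 3 and 4, LKO HFD mice 2, 3 and 4), with an adjusted p of up to 0.0980 without FF CD mouse 3, and it was also lost with no filter (0.0888) and with a replicate block (0.0551).

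The other Cyp2d genes were not called in any comparison. Cyp2d10 had means of 292, 281, 247 and 248 RPKM in the FF CD, LKO CD, FF HFD and LKO HFD mice, and Cyp2d26 had 323, 344, 412 and 346. For HFD in FF mice, Cyp2d26 at 0.35 and Cyp2d13 at -0.43 passed the adjusted p (0.045 and 0.044) but not the fold change. Cyp2d13, Cyp2d22 and Cyp2d40 had group means between 26.3 and 71.0 RPKM. Cyp2d11 was at 0.445 to 0.750 in the FF CD and 0.0644 to 0.291 in the FF HFD mice, without overlap, and LKO HFD mouse 5 at 3.64 RPKM carried it over the filter, as the 13 mice of the other groups averaged 0.349. Cyp2d12 and Cyp2d34 stayed below 0.5 RPKM in every mouse.

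Cyp1a2, the P450 of caffeine and aromatic amines and a target of AhR (GRCm38 chr9:57676937-57683703, minus strand), was at 226, 156, 194 and 208 RPKM in the FF CD, 155, 109, 156 and 147 in the LKO CD, 93.4, 88.7, 94.2, 93.2 and 87.9 in the FF HFD and 108, 166, 114, 115 and 99.7 in the LKO HFD mice. The FF HFD mice were the lowest and the most alike, below every mouse of the other groups, and the highest LKO CD mouse lay just under the lowest FF CD mouse. It fell with HFD in FF mice (-1.08 ± 0.14, adjusted p = 6.8e-05) and differed by -0.24 ± 0.14 in LKO mice (adjusted p = 0.33). The genotypes differed by -0.47 ± 0.15 under CD (adjusted p = 0.31) and 0.37 ± 0.13 under HFD (adjusted p = 0.13), neither of which passed. The interaction of 0.84 ± 0.20 (adjusted p = 0.029) was lost without any of 6 mice (FF CD mice 1, 3 and 4, FF HFD mouse 2, LKO CD mice 2 and 4), with an adjusted p of up to 0.0749 without LKO CD mouse 2, and with no filter (0.0557). Cyp1a1 and Cyp1b1, the other AhR-responsive members, were below the filter at no more than 0.404 and 0.347 RPKM.

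In subfamily Cyp3a, Cyp3a11, the main Cyp3a form of mouse liver and a target of PXR (GRCm38 chr5:145854426-145879964, minus strand), was at 269, 231, 356 and 328 RPKM in the FF CD, 384, 684, 435 and 723 in the LKO CD, 644, 1196, 913, 914 and 753 in the FF HFD and 489, 908, 879, 1219 and 464 in the LKO HFD mice. The 4 FF CD mice were below all 14 other mice, while the groups under HFD overlapped over most of their range. HFD raised it in FF mice (1.56 ± 0.27, adjusted p = 0.00075) and the change in LKO mice was 0.46 ± 0.27 (adjusted p = 0.33). The genotype difference was 0.88 ± 0.29 under CD (adjusted p = 0.33) and -0.23 ± 0.26 under HFD (adjusted p = 0.66). Its interaction, -1.10 ± 0.38, did not pass (adjusted p = 0.14). Cyp3a11 was thus called for diet in FF mice without being called between the genotypes under HFD. In its transcript 66.2% of the 31-base words occur in no other gene, so part of its reads cannot be assigned with certainty.

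Cyp3a59 (GRCm38 chr5:146079257-146113287, plus strand) was at 2.76, 3.08, 4.16 and 4.78 RPKM in the FF CD, 6.04, 7.60, 3.98 and 7.71 in the LKO CD, 12.1, 19.5, 18.1, 13.1 and 12.9 in the FF HFD and 9.52, 9.14, 6.49, 4.96 and 4.39 in the LKO HFD mice. The FF HFD mice were above all others. The log2 fold change was 1.78 ± 0.22 for HFD in FF mice (adjusted p = 3.2e-05), 0.09 ± 0.22 in LKO mice (adjusted p = 0.84), -1.06 ± 0.20 for genotype under HFD (adjusted p = 0.0066) and -1.69 ± 0.31 for the interaction (adjusted p = 0.0046). Its neighbour Cyp3a25, with 97.5% coding identity, had 191 ± 32.6, 239 ± 34.2, 283 ± 14.7 and 204 ± 52.4 RPKM in the FF CD, LKO CD, FF HFD and LKO HFD mice. Its FF diet groups did not overlap, but the log2 fold change of 0.58 (adjusted p = 0.016) was 1.48-fold as a ratio of means and did not pass the threshold on the log2 scale. Cyp3a59 made up 1.51% to 2.16% of the Cyp3a25 level in the FF CD mice and 4.40% to 6.42% in the FF HFD mice, ranges that did not overlap. Of the 31-base words of the Cyp3a59 transcript 51.1% occur in no other gene, so part of its reads cannot be assigned with certainty. Cyp3a13 had group means of 43.2 to 63.3 RPKM and was not called, and Cyp3a16, Cyp3a44 and Cyp3a57 were below the filter at no more than 0.353, 0.306 and 0.233 RPKM.

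Of the remaining subfamilies, Cyp2j held the only P450 gene called for diet in LKO mice. Cyp2j9 (GRCm38 chr4:96568429-96591578, minus strand) was at 5.99, 7.48, 7.77 and 7.37 RPKM in the LKO CD and 3.81, 4.72, 3.17, 5.24 and 2.48 in the LKO HFD mice, without overlap, and at 4.02, 4.17, 7.38 and 5.09 in the FF CD and 3.87, 4.70, 4.29, 2.50 and 2.37 in the FF HFD mice, with overlap. The log2 fold change was -0.77 ± 0.19 in LKO (adjusted p = 0.037) and -0.44 ± 0.19 in FF mice (adjusted p = 0.11), and the interaction of -0.32 ± 0.27 did not pass (adjusted p = 0.59). In LKO mice the call was lost when any LKO CD mouse was left out, as it was for mice 3 and 5 of the LKO HFD group, with adjusted p between 0.0589 and 0.108, and with no filter (0.0779) or only the LKO mice in the model (0.0567).

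Cyp2j5, an epoxygenase, had means of 129, 143, 161 and 159 RPKM in the FF CD, LKO CD, FF HFD and LKO HFD mice, and its log2 fold change of 0.34 for HFD in FF mice (adjusted p = 0.022) did not reach the threshold on fold change. Cyp2f2, known for the oxidation of naphthalene, had 425, 309.6, 432 and 344 in the same order. Cyp2j6, Cyp2r1, a vitamin D 25-hydroxylase, and Cyp2u1, a fatty acid hydroxylase, had group means of 19.01 to 21.8, 6.68 to 9.22 and 4.83 to 8.24 RPKM and were not called. Cyp2g1 reached 0.955 RPKM, and Cyp2j8, Cyp2s1 and Cyp2t4 reached 0.180, 0.277 and 0.141. Cyp2j11, Cyp2j12, Cyp2j13 and Cyp2w1 did not exceed 0.0416, and 6 P450 genes had fewer than 3 estimated reads in every mouse.

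The receptors that regulate these genes were taken from a list of 15 regulators, of which 14 were tested. For HFD in FF mice, 1 was called higher and 1 lower (5.11% and 1.49% of all genes). Nr1i3, the gene of CAR, was at 36.5 ± 7.45 RPKM in FF CD, 53.9 ± 7.71 in LKO CD, 72.7 ± 11.2 in FF HFD and 62.0 ± 13.1 in LKO HFD mice, and it rose with HFD in FF mice (0.99 ± 0.17, adjusted p = 0.00075), with an interaction of -0.80 ± 0.24 that did not pass (adjusted p = 0.089). Bcl6, a repressor of genes of female liver, fell (-1.02 ± 0.32, adjusted p = 0.031). Nr1i2, the gene of PXR, was called for the interaction alone, at -0.67 ± 0.15 (adjusted p = 0.023), with 21.8 ± 2.75, 27.0 ± 1.26, 30.4 ± 5.27 and 23.1 ± 1.17 RPKM in the FF CD, LKO CD, FF HFD and LKO HFD mice. Ahr was at 5.30 ± 0.603, 5.57 ± 0.853, 5.29 ± 0.864 and 5.39 ± 1.33 in the same order and was not called. For the interaction, 1.5% of all genes were called lower. No regulator of the list was called for diet in LKO mice or for genotype under either diet.

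**Figure D5:**
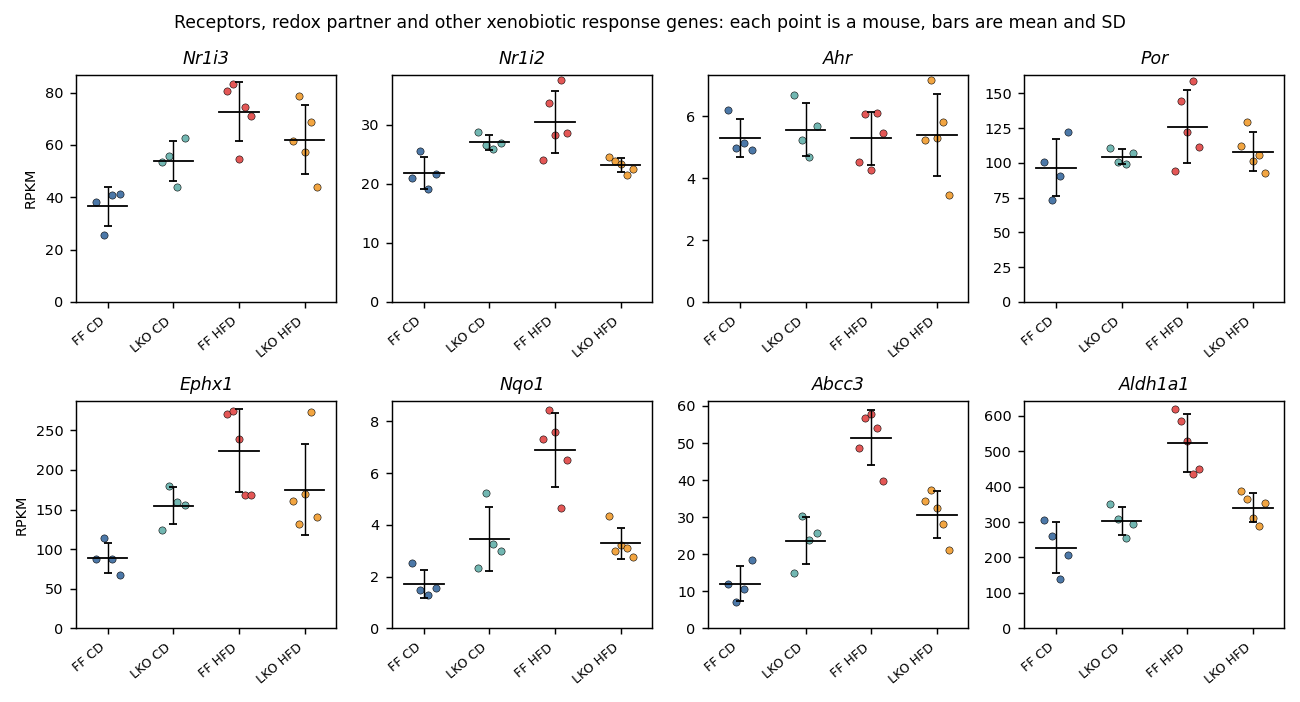
RPKM (y axis, linear, from 0) of the receptor genes Nr1i3, Nr1i2 and Ahr, of Por, and of Ephx1, Nqo1, Abcc3 and Aldh1a1 in each mouse (points) of the 4 groups (x axis), with the mean and SD. Nr1i3 and Abcc3 are lowest on average in FF CD mice and highest in FF HFD mice, with the LKO groups between them.

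Among 15 genes of electron supply, heme synthesis and epoxide hydrolysis, 3 were called higher with HFD in FF mice (5.11% of all genes). These were Ephx1, the microsomal epoxide hydrolase (1.31 ± 0.21, adjusted p = 0.00035), Hmox1, which degrades heme (0.88 ± 0.20, adjusted p = 0.0041), and Cpox, of heme synthesis (0.76 ± 0.12, adjusted p = 0.00047). Hmox1 also rose in LKO mice (0.74 ± 0.20, adjusted p = 0.041), and Ephx1 was called for the interaction (-1.18 ± 0.30, adjusted p = 0.037). Over all genes, 0.965% were called higher for diet in LKO mice and 1.5% lower for the interaction. Por, the P450 reductase, had log2 fold changes of 0.38 in FF and 0.04 in LKO mice for HFD, and Alas1, the first enzyme of heme synthesis, 0.66 and -0.51. Neither was called in any comparison, and no gene of the list was called for genotype under either diet.

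Of 10 genes outside the P450 family that AhR, CAR or PXR induce, 9 were tested. For HFD in FF mice 4 were called higher and 1 lower (5.11% and 1.49% of all genes). Nqo1, Gstm3, Abcc3 and Aldh1a1 were the genes called higher, and Ces2a was the gene called lower. The largest changes were in Abcc3, an export pump (2.07 ± 0.22, adjusted p = 8.8e-06), Gstm3, a glutathione transferase (1.79 ± 0.32, adjusted p = 0.00097), and Nqo1, a quinone reductase (1.54 ± 0.17, adjusted p = 1.3e-05), all higher. In LKO mice 1 gene of the list, Gadd45b, was called for diet and was higher (0.965% of all genes). Nqo1 was lower in LKO than in FF mice under HFD (-0.87 ± 0.16, adjusted p = 0.0051), and none was called for genotype under CD. For the interaction, Nqo1, Abcc3 and Aldh1a1, a retinal dehydrogenase, were called at -1.57, -1.69 and -1.07 (adjusted p = 0.0016, 0.0056 and 0.030). Over all genes, 1.17% were called lower for genotype under HFD and 1.5% lower for the interaction. Aldh1a1, Ces2a and Gadd45b are named here after their values were seen.

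P450 genes with a known difference between the sexes were taken from short lists. Over all genes tested, 5.11% were called higher and 1.49% lower with HFD in FF mice. Between genotypes under HFD 0.902% were called higher and 1.17% lower in LKO mice. Under CD 0.135% were called lower in LKO mice, and for the interaction 0.947% were called higher and 1.5% lower. Of 8 genes known to be higher in female liver, Cyp2a4 and Cyp2b9 were tested, and both were higher with HFD in FF mice and lower in LKO than in FF mice under HFD. Cyp2b9 was tested only because it was high in the FF HFD mice, and the other 6 were below the filter, so the list is not read as a group. Of 4 genes known to be higher in male liver, Cyp2d9, Cyp7b1, an oxysterol hydroxylase, and Cyp4a12b, a fatty acid hydroxylase with a near-identical copy, fell with HFD in FF mice, the last 2 at -2.09 ± 0.23 (adjusted p = 1.1e-05) and -3.13 ± 0.50 (adjusted p = 0.00038). The fourth, Cyp4a12a, the near-identical copy, had -0.79 ± 0.32 (adjusted p = 0.084) and was not called in any comparison. Cyp7b1 and Cyp4a12b were higher in LKO than in FF mice under HFD (1.47 and 1.87, adjusted p = 0.00084 and 0.035), they and Cyp2d9 were called higher for the interaction, which for Cyp2d9 was lost without any of 10 mice as given above, and Cyp7b1 was lower in LKO mice under CD (-1.26 ± 0.24, adjusted p = 0.036). No gene of either list was called for diet in LKO mice.

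Markers of liver cell types were read beside these values. Over all genes tested, 5.11% were called higher and 1.49% lower with HFD in FF mice, and 0.965% and 0.307% in LKO mice. Between genotypes under HFD 0.902% were called higher and 1.17% lower in LKO mice. All 5 hepatocyte markers were measured, summing to 30981 to 38893 RPKM in FF CD, 37915 to 48310.0 in LKO CD, 34037 to 43465 in FF HFD and 36647 to 43795 in LKO HFD mice, and 3 of them (Apoa1, Cps1 and Serpina1a) fell with HFD in FF mice, and none was called in LKO mice. None of 6 pericentral markers was called for diet in either genotype, and Rhbg, an ammonia transporter, was called lower in LKO than in FF mice under HFD. The pericentral markers summed to 569.9 to 937 RPKM in FF CD, 562 to 717 in LKO CD, 762 to 1016 in FF HFD and 459 to 711 in LKO HFD mice, so that the sums of the genotypes under HFD did not overlap. The summed level of 5 markers of sinusoidal endothelium was 12.0 to 25.4 RPKM in FF CD, 9.59 to 27.2 in LKO CD, 31.8 to 50.3 in FF HFD and 24.8 to 33.9 in LKO HFD mice, and 3 of the 5 were called higher with HFD in FF mice. Of 6 markers of Kupffer cells and macrophages, 2 were called higher with HFD in FF mice and 1 in LKO mice, with summed levels of 39.8 to 59.5 in FF CD and 50.3 to 97.2 in FF HFD mice, and of 34.4 to 56.0 in LKO CD and 49.9 to 96.7 in LKO HFD mice. The sums of 5 periportal markers were 370.2 to 482, 434 to 489.8, 426 to 551 and 377 to 451 in the FF CD, LKO CD, FF HFD and LKO HFD mice, and those of 5 stellate cell markers 55.8 to 80.1, 56.0 to 92.5, 67.4 to 99.9 and 49.3 to 97.0. Of the 5 periportal markers 1 was called higher and 1 lower with HFD in FF mice and 1 lower in LKO mice, and of the 5 stellate cell markers 1 was called higher in FF mice. Under HFD, 1 hepatocyte and 1 periportal marker were higher and 1 pericentral and 1 stellate marker lower in LKO than in FF mice, and no marker was called between the genotypes under CD. No cholangiocyte (2 tested of 4) or lymphocyte (2 tested of 3) marker was called, and the 3 adipocyte and 4 pancreas markers were below the filter, summing to at most 1.13 and 0.524 RPKM. The part of these cell types in the changes of the P450 genes was not tested.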

How the data were processed

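Liver RNA of 18 mice was sequenced, and the deposited values are RPKM per gene, which the authors computed in Partek after alignment with HISAT2 (version 2.0.4) to the mouse genome mm10. The annotation, strand setting and handling of reads with several matches are not given in the sources used here. The labels name a small RNA kit protocol beside a standard RNA sequencing protocol, and which was used for these libraries is not settled here. Values far below that of 1 read occur, and how they arose was not tested. Depth is not part of the files. It was estimated from the steps between values under 0.2 RPKM in single-exon genes, without an error of its own. The counting intervals of ratios cover counting error only.

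Groups were taken from the sample labels. Log2(RPKM + 1) was fitted with limma (version 3.58.1, R 4.3.3, with a trend in the variance) over 4 groups and 5 comparisons, for genes with a mean of at least 0.5 RPKM over all mice, with Benjamini-Hochberg adjustment over 11090 genes. The fit was tested on simulated data. The alternatives were a pseudocount of 0.1, a minimum of 1 RPKM or none, median centring, quantile normalization, scaling to the same sum, calls by adjusted p alone, a model of only the groups compared, a replicate block, and leaving out each mouse. Coordinates came from GENCODE M21 (GRCm38), which matched 56 of the 57 genes (not Cyp2d13), and start windows from RefSeq (GRCm38.p6). Sequence comparisons used Biopython (version 1.88).

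The genes, lists and tests were chosen with earlier results of these data known. Every P450 gene called in a comparison was named with its values, as was every gene with a group mean of at least 100 RPKM, and the rest by range. Nr1i3, Nr1i2, Ahr, Por and Alas1 were always named, with up to 3 called genes of each other list by size of change. A replicate number shared between groups was not used to pair the mice in the main model, and whether it marks a pairing is not given in the labels.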

Additional observations from a re-analysis of the deposited data

Results flagged for a closer look

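Of 148 sets of 4 or 5 mice, 11 held a mouse far from the rest, where chance gives about 1 in 20. The gap of that mouse to its nearest neighbour is given as a share of the whole range of the group, both on the log2(RPKM + 1) scale. For Cyp1a2, LKO CD mouse 2 was at 109 RPKM beside 147 to 156 (0.844) and LKO HFD mouse 2 at 166 beside 99.7 to 115 (0.727). Cyp2b9 was listed at 0 in FF CD mouse 1 beside 0.0210 to 0.0228 (0.924), which is a difference of about 1 read, and was at 3.42 in LKO CD mouse 4 beside 0 to 0.196 (0.880). Cyp2c38 was at 16.6 in LKO HFD mouse 5 beside 23.5 to 25.2 (0.828), and Cyp2c55 at 2.14 in FF HFD mouse 2 beside 0.980 to 1.16 (0.815). Cyp2c67 was at 234 in FF CD mouse 1 beside 182 to 184 (0.945), Cyp2c68 at 138 in LKO HFD mouse 3 beside 101 to 109 (0.738), and Cyp2c69 at 22.1 in FF HFD mouse 4 beside 3.92 to 5.39 (0.831). These last 3 genes are copies that share reads. Cyp2d11 was at 3.64 in LKO HFD mouse 5 beside 0.332 to 0.553 (0.877), and Cyp2r1 at 4.77 in FF HFD mouse 3 beside 6.76 to 7.44 (0.780).

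The response to HFD differed between LKO and FF mice in 11 genes by the interaction test in limma (2.44% of all genes tested). The difference of the log2 fold changes, LKO minus FF, was -5.99 for Cyp2b9, -4.58 for Cyp2a4, -2.43 for Cyp2a22, -2.40 for Cyp2c38, -1.69 for Cyp3a59 and -1.54 for Cyp2c39. It was 1.41 for Cyp2c70, 1.25 for Cyp2d9, 1.12 for Cyp2c23, 0.92 for Cyp2c67 and 0.84 for Cyp1a2. Cyp2b9 passed the filter on low values only through the FF HFD mice.

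Cyp3a41a, a further Cyp3a gene whose symbol lies outside the rule, was at 0.239 to 0.302 RPKM in the FF HFD mice, above the 0.0493 to 0.0877 of the FF CD mice. The LKO HFD mice, at 0.102 to 0.259, also lay above the FF CD mice but overlapped with the LKO CD mice, at 0.0801 to 0.245. It shares sequence with Cyp3a11 and Cyp3a44 and was not tested.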

How the results depend on the processing

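The 13 genes called for HFD in FF mice were each called without any 1 mouse, and Cyp2c54 was lost (adjusted p = 0.0520) when only the FF mice were in the model. The number of P450 genes called was 13 to 15 for HFD in FF mice, 0 to 1 in LKO mice, 1 to 1 for genotype under CD, 6 to 12 under HFD and 7 to 11 for the interaction when each mouse was left out in turn. Both single calls, Cyp2j9 in LKO mice and Cyp2c38 under CD, became 0 in a model of only the groups compared, and Cyp2j9 also with no filter on low values (0). By adjusted p alone the counts were 18, 1, 1, 11 and 11. With all mice scaled to 1 common sum, 3 subfamily sums moved by more than their SD, all in FF HFD mice. Cyp1a was at 97.1 RPKM beside 91.8 ± 2.89 unscaled, and Cyp2e at 3475 beside 3289.6 ± 141. Cyp2j was at 197, where single mice lay at 178 to 203 unscaled. The value of Cyp2b9 for HFD in LKO mice turned to 0.43 with a pseudocount of 0.1, 0.059 with a replicate block and 0.42 without LKO CD mouse 4 (-0.30 to 0.42 over the left-out mice), and that of Cyp2e1 in FF mice to 0.29 (quantile), 0.018 (replicate block), 0.068 (same sum), 0.030 without FF CD mouse 1 and 0.072 without FF CD mouse 4 (-0.18 to 0.072). The cause was not tested, and neither gene was called there. Cyp2c23 under HFD was lost under median centring, quantile normalization, the same sum, no filter and only the groups compared, and the interaction of Cyp2c67 under the first 4 of these, while Cyp2c67 under HFD was lost with only the groups compared. With no filter, Cyp2a5 and Cyp2c38 under HFD and the interactions of Cyp1a2, Cyp2c23 and Cyp2d9 were also lost. The counts were then 15, 0, 1, 8 and 8, with Cyp2b10 and Cyp2b13 gained for HFD in FF mice and Cyp2b10 for genotype under HFD and the interaction. In the same order, 3.5%, 0.234%, 0.0598%, 0.757% and 0.842% of all 20071 genes were called with no filter. Shares over all genes are given here for the main model and for no filter only, so counts under the other settings stand without them. The difference of Cyp2d9 between genotypes under HFD passed under median centring, quantile normalization, the same sum and a minimum of 1 RPKM. With the replicate number as a block the counts were 15, 1, 1, 9 and 11, and Cyp2c23 under HFD and the interaction of Cyp2d9 were lost. In 25 same-numbered pairs the correlation of deviations was -0.173 to 0.332, with a median of 0.054, and was over 0.1 in 10. The labels give no pairing, and these correlations cannot settle whether the numbers mark a shared litter or batch. The median of all genes for HFD in FF mice was -0.025 to 0.139 over the scalings. Across the named genes, 712 of the values with 1 mouse left out kept their direction and side of the threshold, 74 lost the call, 3 gained it and 3 turned sign, compared with 355, 21, 4 and 5 under the other settings. Of the 20 untested genes, which the filter left out, estimated reads in the highest mouse ran up to 215 (Cyp2b13), and 6 genes had fewer than 3 in every mouse.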
